A study of Mus musculus with 6 samples.

Results

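The genes Cpeb1, Cpeb2, Cpeb3 and Cpeb4 encode the cytoplasmic polyadenylation element binding proteins of the mouse, and their mRNAs were followed on arrays of RNA recovered with the RNA-binding protein HuD. All probe sets paired with exactly 1 of these 4 symbols in the platform annotation were taken, which gave 4 of the 18193 named genes and 11 of the 45101 probe sets in the value table. Cpeb1 had 1 probe set, Cpeb2 had 3, Cpeb3 had 4 and Cpeb4 had 3. The probe sets of these genes were taken by annotation alone, but the genes were chosen with earlier results of these data known.

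The RNA came from mouse hippocampus and was hybridised to 6 one-colour Affymetrix arrays. On 3 arrays it was RNA recovered on protein-G beads with anti-myc antibodies directed at transgenic HuD, on 2 arrays it was RNA held by the same kind of beads carrying non-immune IgG, and 1 array held total input RNA. HuD is the neuronal ELAV-family protein encoded by Elavl4. The sources used here give neither strain, age and sex of the mice, nor the promoter of the transgene. They do not say whether the mice behind the IgG and input RNA carried the transgene. An effect of genotype therefore cannot be told apart from one of the pulldown. Nor do they say whether arrays came from separate animals or pooled tissue. A p-value therefore reflects how much these arrays varied, which may be technical variation alone. The RNA is from whole tissue, so fewer cells of a type and less RNA per cell cannot be told apart.

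CPEB proteins bind U-rich cytoplasmic polyadenylation elements in the 3′ untranslated regions of mRNAs. Bound CPEB1 can hold an mRNA silent with a short poly(A) tail and, once phosphorylated, favour lengthening of the tail and translation. In the hippocampus CPEB proteins are known for controlling protein synthesis from mRNAs stored near synapses. CPEB2, CPEB3 and CPEB4 resemble one another more closely than they resemble CPEB1. ELAV proteins such as HuD bind AU-rich and U-rich stretches of mRNAs, mostly in the 3′ untranslated region as well.

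The mRNA of Elavl4, which encodes the pulled-down protein, was read first. Its level does not show whether the protein was recovered. Whether its probe sets also read mRNA of the transgene is not known from the sources used here. On its brightest probe set Elavl4 had signals of 2294.1, 2010.1 and 1688.9 on the HuD arrays, 765.9 and 642.1 on the IgG arrays and 597.3 in the input, and all 3 of its probe sets were called higher with HuD than with IgG; without HuD array 1 the log2 difference of the brightest was 1.35 and did not pass. Of the hippocampal excitatory neuron markers, 5 of 6 had an input signal above the median of that array; the exception was Prox1, a marker of granule neurons, at 9.8. Markers of cells other than neurons were also present in the input, with 1 of 20 below the array median. Between the pulldowns 5 of these 20 fell and 0 rose (median log2 difference −0.75), and against the input 6 fell and 0 rose (median −0.70). Over all genes, each read by its brightest probe set, 12.1% fell and 8.35% rose between the pulldowns, and 4.99% fell and 4.23% rose against the input. The summed signal of the 20 was 29092 to 34904 on the HuD arrays, 39434 and 50605 on the IgG arrays and 33012 in the input. Without the abundant Ttr and Mbp, left out after their values were seen, the other 18 summed to 5636 to 8178 on the HuD arrays, 11573 and 13663 on the IgG arrays and 14833 in the input. Of the 4 interneuron markers 3 fell between the pulldowns, namely Gad1 (−1.43), Slc32a1 (−1.90) and Sst (−1.52), while Gad2 was at 0.22. Of the 6 excitatory neuron markers 1 rose (Neurod2, 0.83) and 1 fell (Zbtb20, −1.59), with a median of −0.22. Of 5 markers of neurons in general 0 rose and 0 fell (median 0.24). The part of all these markers in the results on the Cpeb genes was not tested.

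The first comparison, of HuD pulldowns with IgG pulldowns, asked whether Cpeb mRNAs made up a larger share of the RNA recovered with HuD than of the bead background. Of the 11 Cpeb probe sets, 7 were higher with HuD, 0 were lower and 4 did not pass the test. The 7 were 2 of the 3 probe sets of Cpeb2, 3 of the 4 of Cpeb3 and 2 of the 3 of Cpeb4, while the single probe set of Cpeb1 did not pass. A probe set was called when its limma p-value, adjusted by Benjamini-Hochberg over 45037 probe sets, was under 0.05, and at that threshold 5.73% of all probe sets were called higher and 8.70% lower. The median log2 difference was 1.23 over the 11 probe sets and −0.08 over all probe sets. Log2 differences are of log2(signal + 32), which understates the change of dim probe sets, and each ± gives the standard error. Because the arrays had been brought to 1 overall level, a rise or fall is one in share of the array's signal. The share of calls that were higher depended on that scaling: it was 39.7% as deposited, 70.7% with the arrays centred on their 75th percentile, 68.0% with the median and 53.5% after quantile normalization, and 7 Cpeb probe sets were called higher, with 0 lower, in all 4.

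On 8 of the 11 probe sets every HuD array lay above both IgG arrays, and on 0 every HuD array lay below both. Of all probe sets 44.2% had no overlap between HuD and IgG arrays in either direction: 7210 of 45037 had every HuD array above and 28.2% had every HuD array below. On 9 of the 11 the input, a single array, lay below every HuD array. The share of all probe sets for which this held was not counted, so this count has no background beside it.

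**Figure D1:**
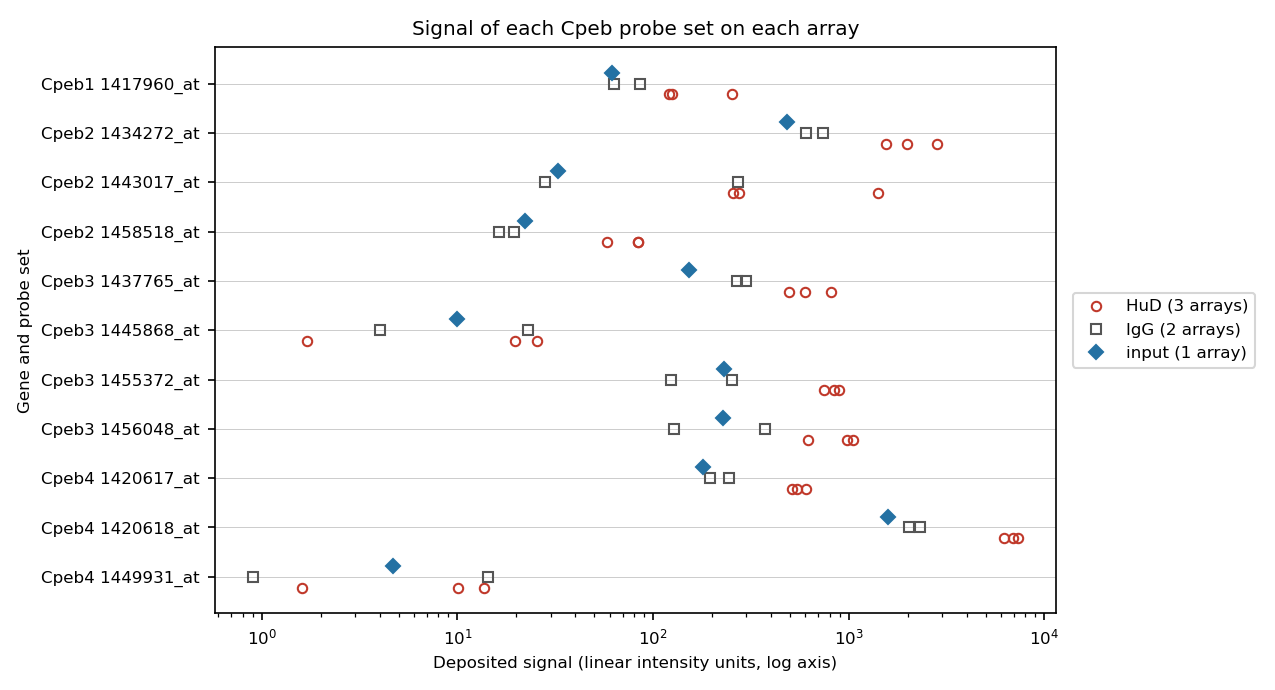
Deposited signal of each of the 11 Cpeb probe sets (rows) on each array, on a logarithmic axis of linear intensity units; open circles are the 3 HuD arrays, open squares the 2 IgG arrays and the filled diamond the input. The HuD circles lie to the right of both IgG squares on 8 rows, and overlap them on Cpeb2 1443017_at, Cpeb3 1445868_at and Cpeb4 1449931_at.

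Cpeb4 encodes a CPEB protein that was studied for meiotic progression and for the response of cells to stress. Its probe set 1420618_at had signals of 6244.4, 7321 and 6911.1 on the HuD arrays, 2030.5 and 2305.8 on the IgG arrays and 1595.7 in the input. The HuD values stood close together and far above the IgG values, which in turn lay above the input. The difference between the pulldowns was 3.12-fold (log2 difference 1.64 ± 0.23, limma adjusted p = 0.00579). It was 1.61 within the pulldown arrays whose titles end in e1_le1 (2 HuD, 1 IgG). Within the others, called suffix le1 (1 HuD, 1 IgG), it was 1.61 as well. Each suffix holds 1 IgG array, so these values and those given below for other genes are differences without a test. A second probe set, 1420617_at, read 544.8, 607.5 and 513.6 with HuD, 196.4 and 243.1 with IgG and 180.4 in the input. Its groups did not overlap either, and it was 2.34-fold higher (1.23 ± 0.22, limma adjusted p = 0.0112). The remaining one, 1449931_at, lay below the array median on all 6 arrays, with signals of 13.6, 1.6 and 10.1 for HuD, 14.3 and 0.9 for IgG and 4.7 in the input. On that probe set HuD and IgG overlapped (0.04 ± 0.19), although the annotation pairs all 3 probe sets with the same RefSeq mRNA.

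Cpeb3 encodes a CPEB protein known for restraining the synthesis of glutamate receptor subunits and for a part in long-lasting memory. Its probe set 1455372_at had signals of 842.2, 748.3 and 888.8 on the HuD arrays, 123.7 and 251.7 on the IgG arrays and 231 in the input. The HuD arrays agreed closely, the 2 IgG arrays differed from each other, and the input lay between them. The rise was 4.07-fold (log2 difference 2.03 ± 0.29, limma adjusted p = 0.00559), the largest among the called Cpeb probe sets, at 2.49 within suffix le1 and 1.58 within e1_le1. The probe set with the highest mean, 1456048_at, read 1047.5, 984.2 and 618.6 with HuD, 372.2 and 128.5 with IgG and 227.9 in the input. HuD array 3 was the lowest of the group and still above both IgG arrays, and the difference was 3.51-fold (1.81 ± 0.40, limma adjusted p = 0.023). It was 1.14 without IgG array 2, where it did not pass, and 2.48 without IgG array 1, where it passed. Probe set 1437765_at read 598, 813.1 and 497.2 with HuD, 299 and 267.8 with IgG and 153.3 in the input, a rise of 2.08-fold (1.06 ± 0.26, limma adjusted p = 0.0298). Here the IgG arrays lay above the input, as on both bright probe sets of Cpeb4. The last probe set, 1445868_at, was below the array median on 5 of 6 arrays, between 1.7 and 25.4 over all arrays, and its groups overlapped (0.06 ± 0.28).

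Cpeb2 encodes a CPEB protein known for slowing translation elongation on its target mRNAs, among them that of the hypoxia factor Hif1a. Its brightest probe set, 1434272_at, had signals of 1542.3, 2824.9 and 1977.2 on the HuD arrays, 601.5 and 737.6 on the IgG arrays and 481.2 in the input. HuD array 2 was the highest, and the lowest HuD array was still above both IgG arrays. The difference was 2.98-fold (log2 difference 1.58 ± 0.29, limma adjusted p = 0.0123), at 1.31 within suffix le1 and 1.64 within e1_le1. The dim probe set 1458518_at read 84.1, 84 and 58.1 with HuD, 19.5 and 16.3 with IgG and 22.2 in the input, a rise of 2.14-fold (1.10 ± 0.26, limma adjusted p = 0.0289). On the remaining one, 1443017_at, HuD array 2 lay far above the other HuD arrays, and the 2 IgG arrays lay far apart. It read 254.9, 1406.3 and 275.9 with HuD, 270.7 and 28.1 with IgG and 32.6 in the input. Its difference of 1.90 ± 0.82 did not pass (limma adjusted p = 0.17), and it was −0.08 within suffix le1 against 3.47 within e1_le1.

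Cpeb1 encodes the founding CPEB protein, which acts in oocyte maturation and at synapses. Its only probe set, 1417960_at, had signals of 125.3, 252.7 and 121 on the HuD arrays, 63.1 and 85.7 on the IgG arrays and 61.7 in the input. The lowest HuD array was above the highest IgG array, but HuD array 2 was far above the other HuD arrays. The log2 difference of 0.84 ± 0.33 (95% interval 0.10 to 1.59) did not pass over all probe sets (limma adjusted p = 0.127). It passed when only probe sets above the median of the mean log2 values were tested (adjusted p = 0.0481), where 40.7% of 22518 probe sets passed, and when only 1 probe set per gene and genes above the median were tested (adjusted p = 0.0364), where 55.5% of 9097 genes passed. Over the 14 alternative settings of the fit the adjusted p ran from 0.0364 to 0.373 and was past the threshold in 2. Without HuD array 2 the difference was 0.55.

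**Figure D2:**
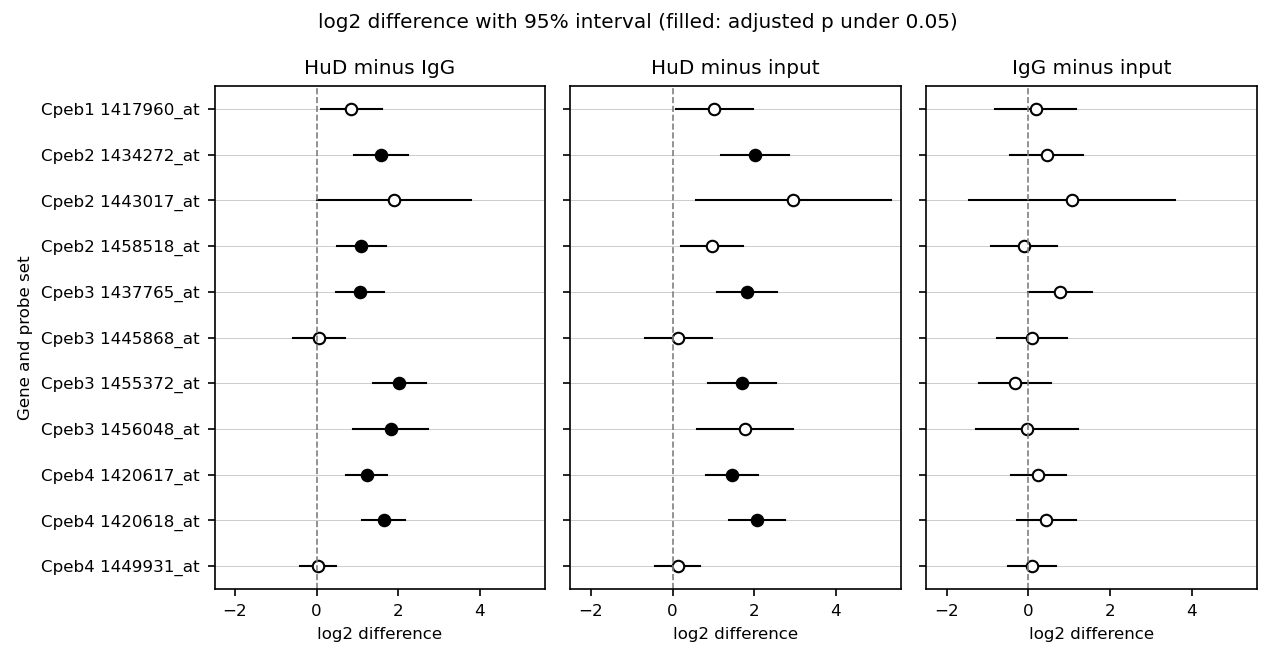
Log2 difference of each Cpeb probe set (rows) for HuD minus IgG, HuD minus input and IgG minus input, on the log2(signal + 32) scale; points are the fitted differences, bars their 95% intervals, and filled points passed an adjusted p of 0.05. There are 7 filled points in the first panel, 5 in the second and 0 in the third, and no filled point lies below 0.

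Leaving out 1 array changed many of the calls. The differences of the 7 probe sets called with all arrays stayed above 0, but that of Cpeb3 1456048_at ran from 1.14 to 2.48. For the uncalled Cpeb2 1443017_at the range was 0.73 to 3.06. Without HuD array 1, 2 or 3 the number of Cpeb probe sets called higher than IgG was 0, 4 and 2, and without IgG array 1 or 2 it was 4 and 4. Calls over all 45037 probe sets went the same way, from 6497 with all arrays to 725, 3604 and 1251 without HuD array 1, 2 or 3, and 4350 and 6247 without IgG array 1 or 2. For Cpeb4 1420618_at the difference stayed between 1.55 and 1.73 and passed in 4 of the 5 fits, with adjusted p from 0.016 to 0.0513. For Cpeb3 1455372_at it lay between 1.59 and 2.46 and also passed in 4 of 5, and for Cpeb4 1420617_at between 1.09 and 1.36 with 3 of 5. Cpeb2 1434272_at lay between 1.35 and 1.78 and passed in 2 of 5, and Cpeb3 1456048_at passed in 1 of 5. Neither Cpeb2 1458518_at, between 1.03 and 1.22, nor Cpeb3 1437765_at, between 0.87 and 1.21, passed with any array left out.

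**Figure D3:**
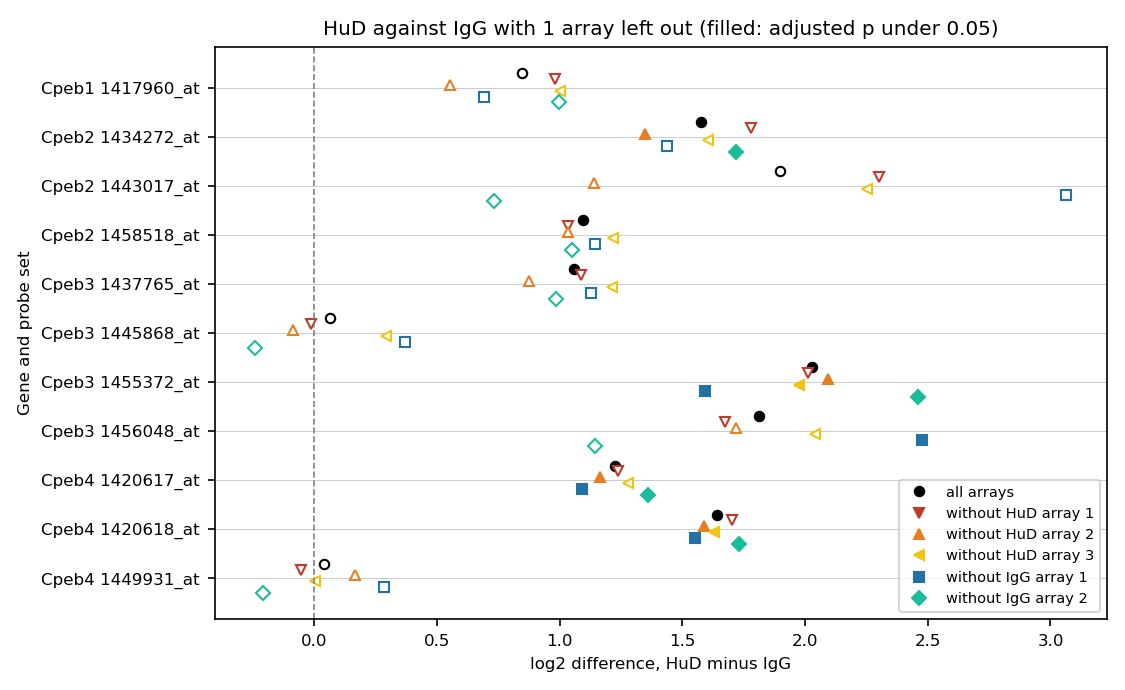
Log2 difference between HuD and IgG pulldowns for each Cpeb probe set (rows), fitted with all 6 arrays and with each HuD or IgG array left out in turn; filled symbols passed an adjusted p of 0.05. All symbols of the 7 probe sets called with all arrays stay to the right of 0, with a lowest value of 0.87, while 0 of 11 are filled without HuD array 1.

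The 4 genes were compared with each other by their brightest probe sets, since signals of different probe sets cannot be set against each other but their differences between groups can. The difference between HuD and IgG was 0.73 smaller on the log2 scale for Cpeb1 than for Cpeb2 (−0.73), and it was −0.97 for Cpeb1 relative to Cpeb3 and −0.80 relative to Cpeb4. Among the other 3 genes it differed by −0.23 for Cpeb2 relative to Cpeb3, −0.06 for Cpeb2 relative to Cpeb4 and 0.17 for Cpeb3 relative to Cpeb4. Exact two-sided permutation tests over the 5 pulldown arrays gave p between 0.1 and 0.9 for these 6 pairs, and at least 0.6 after adjustment. With 3 arrays against 2 the smallest p of this test is 0.1, so it could not have passed and shows neither that the genes differ nor that they act alike. Over all 6 arrays the profiles of Cpeb2 and Cpeb4 were nearest, with a root mean square distance of 0.19 between their centred log2 values, and those of Cpeb1 and Cpeb3 were farthest, at 0.71.

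The comparison of HuD pulldowns with total RNA asked whether the same mRNAs were also over-represented relative to the starting material. It shares the HuD arrays with the comparison above and rests on 1 input array, to which the fit gives the spread of the others. Of the 11 Cpeb probe sets 5 were higher and 0 lower than in the input, against 2.72% and 3.21% of all probe sets. Cpeb4 1420618_at was 4.20-fold higher (log2 difference 2.07 ± 0.30, limma adjusted p = 0.0181) and Cpeb4 1420617_at 2.76-fold higher (1.46 ± 0.27). Cpeb2 1434272_at was 4.06-fold higher (2.02 ± 0.37, limma adjusted p = 0.0238). Cpeb3 1437765_at was 3.54-fold higher (1.82 ± 0.32) and Cpeb3 1455372_at 3.26-fold higher (1.70 ± 0.36). Cpeb3 1456048_at, at 1.78 ± 0.51, did not pass here (limma adjusted p = 0.0839), although its difference was about that of the other 2 bright Cpeb3 probe sets. Cpeb1 was at 1.02 ± 0.41 (limma adjusted p = 0.208). The largest difference, 2.96 ± 1.04 for Cpeb2 1443017_at, did not pass either. All 5 calls were lost without HuD array 1, 2 or 3 in turn, and in each of these fits 0 of the 45037 probe sets were called. The same held with the title suffix as block, and median centring left 3 of the 5.

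The comparison of IgG beads with the input measured the background of the beads. By limma, 0 of 11 Cpeb probe sets were called, 0 had an unadjusted p under 0.05, and 0.00% of all probe sets were called. The differences lay between −0.32 and 1.06, with 8 of 11 above 0. The 95% interval was −0.29 to 1.15 for Cpeb4 1420618_at, −0.45 to 1.34 for Cpeb2 1434272_at, −1.20 to 0.56 for Cpeb3 1455372_at and −0.83 to 1.18 for Cpeb1, so differences of either direction remain within the error. The nearest to the threshold was Cpeb3 1437765_at, at 0.77 ± 0.34 (limma adjusted p = 0.684).

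For each Cpeb gene the genes with the most similar course over the 6 arrays were found, by the root mean square distance between centred log2 values of brightest probe sets. Cpeb4 lay nearest to Mtf2, a Polycomb-associated factor, at a distance of 0.06, then to Ergic1, a protein of the secretory pathway, and Bpnt2, a Golgi phosphatase, at 0.06 each. Cpeb2 lay nearest to the actin regulator Wasf1 (0.12), the sodium channel subunit Scn2b (0.13) and the transcription factor gene Rfx3 (0.14). Cpeb3 lay nearest to the cyclin gene Ccnd1 (0.13), Fyttd1 (0.22), an mRNA export adaptor, and the dynein subunit Dync1li2 (0.24). Cpeb1 lay nearest to Lsm3 and Bcas2, which encode spliceosome proteins, and Card19 (0.12, 0.12 and 0.13). The neighbours of Cpeb2, Cpeb3 and Cpeb4 had log2 differences between HuD and IgG from 1.47 to 1.89, and those of Cpeb1 from 0.77 to 1.06. Because neighbours were picked on arrays that include the pulldowns, these values follow from the choice. They lie near those of the Cpeb genes by construction and are no separate result.

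The mRNAs of proteins that work with CPEB proteins moved in both directions. Of 55 pathway genes with a probe set of their own 13 were higher with HuD than with IgG, 10 were lower and 32 did not pass, each gene read by its brightest probe set; Camk2a, a kinase gene and a reported target, stands in both of those lists below and did not pass. Over all 18193 genes read in this way 8.35% were higher and 12.1% lower. The median log2 difference was 0.24 for the 55 genes and −0.11 for all genes. The number of lower genes fell to 4 with the arrays centred on the 75th percentile or on the median, and to 0 without HuD array 1, where 4 were higher. Against the input 8 of the 55 were higher and 3 lower, beside 4.23% and 4.99% of all genes.

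In the machinery of the poly(A) tail and the mRNA 3′ end 2 of 13 genes rose and 5 fell (median −0.39). The number that fell was 3 with 75th percentile centring, median centring or quantile normalization, and 0, 3 and 2 without HuD array 1, 2 or 3. Papolg, a poly(A) polymerase, had signals of 1120, 1363.9 and 1299.9 with HuD, 169.4 and 317.5 with IgG and 361.6 in the input, a rise of 4.86-fold (2.28 ± 0.28). Only 1 of its 2 probe sets was called, and the other was at 0.90. Papola, also a poly(A) polymerase, went the other way and fell 2.42-fold (−1.28 ± 0.27, limma adjusted p = 0.0185). Of its 5 probe sets 1 was called lower, and the highest was at 0.76. Sympk was lower too (−1.45 ± 0.37), on 1 of its 2 probe sets. Of 6 listed subunits of the cleavage and polyadenylation factor, which CPEB1 binds, 3 were lower and Cpsf2 (0.02), Cpsf4 (0.26) and Fip1l1 (0.19) did not pass. Lower were Wdr33 by 3.74-fold (log2 difference −1.90), Cpsf1 by 3.21-fold (−1.68) and Cpsf3 by 2.77-fold (−1.47). Of the 7 probe sets of Wdr33 only that one was called, and another was at 0.55; its call was lost without HuD array 1 or 3, and those of Cpsf1 and Cpsf3 without HuD array 1. Tent2, the cytoplasmic poly(A) polymerase Gld2 that acts with CPEB1, was named after its value was seen; it rose 1.88-fold (0.91 ± 0.24, limma adjusted p = 0.0399), and its second probe set was at 0.33. Tent2 lost its call with the title suffix as block and without HuD array 1, 2 or 3 or IgG array 1.

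Among repressor proteins and other partners in the messenger ribonucleoprotein 6 of 17 rose and 0 fell (median 0.78). The number that rose was 1, 2 and 2 without HuD array 1, 2 or 3, 3 without IgG array 1 and 9 with 75th percentile centring. Eif4e, the cap-binding protein that CPEB1-associated repressors hold, read 4054.1, 4755.7 and 4692.5 with HuD against 786.9 and 1320.3 with IgG, and rose 4.30-fold (2.10 ± 0.27), with 3 of its 4 probe sets called higher. Aplp2, a relative of the amyloid precursor protein, rose 2.77-fold, though 1 of its 5 probe sets was at −1.04 and its call was lost without HuD array 1. Patl1, a decapping factor of P-bodies, rose 2.45-fold, and the deadenylase gene Cnot7 2.37-fold. Only 1 of the 2 probe sets of Patl1 was called, and the other was at 0.02. Only 1 of the 3 of Cnot7 was called, and the lowest was at −0.22. Patl1 and Cnot7 lost their calls without HuD array 1, 2 or 3 or IgG array 1, where they were at 0.86 and 0.73 without the last.

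Of 8 kinases, phosphatases and other genes reported to act on CPEB proteins 0 rose and 2 fell (median −0.43). These were the catalytic subunit of protein phosphatase 1, Ppp1ca (−1.18 ± 0.29), and the calpain gene Capn2 (−1.17 ± 0.25), and neither passed with the arrays centred on the 75th percentile (−0.79 and −0.83) or on the median (−0.85 and −0.87). With 1 array left out Ppp1ca passed only without HuD array 2, and Capn2 without HuD array 2 or IgG array 1. Aurka, the kinase that phosphorylates CPEB1 in oocytes, had signals of 1.7 to 17.1 on the HuD arrays, 15.2 and 15.4 on the IgG arrays and 28.8 in the input (−0.21 ± 0.21).

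Of 18 mRNAs reported as translational targets of CPEB proteins 5 rose, 3 fell and 10 did not pass (median 0.28). The number that rose was 2 without HuD array 1 and 3 without HuD array 3, and the number that fell was 1 with 75th percentile or median centring and 0, 1 and 0 without HuD array 1, 2 or 3. Nrn1, which promotes neurite growth, read 9628.6, 11811.3 and 10315.6 with HuD against 1548.1 and 2354.3 with IgG, and Hif1a read 4314.6, 5529 and 4300.5 against 1042.7 and 1119.9. On these probe sets both passed with every HuD or IgG array left out in turn. Of the 4 probe sets of Hif1a 2 were called higher, and the lowest was at −0.07. Mapt, the gene of the microtubule protein tau, was lower (−1.62 ± 0.30) and lost its call without HuD array 1 or 3. For Actb, the gene of beta-actin, the 2 probe sets were called in opposite directions, at 1.61 and −3.22, and the first lost its call without HuD array 1 or 3. The listed glutamate receptor genes, which CPEB proteins are reported to regulate, did not pass. They were Gria1 (−0.62), Gria2 (0.50), Gria3 (−0.49), Grin2a (0.29) and Grin2b (−0.64). Grin2a was read close to background, at 6.5, 18 and 1.8 with HuD and 1 and 0.9 with IgG.

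**Figure D4:**
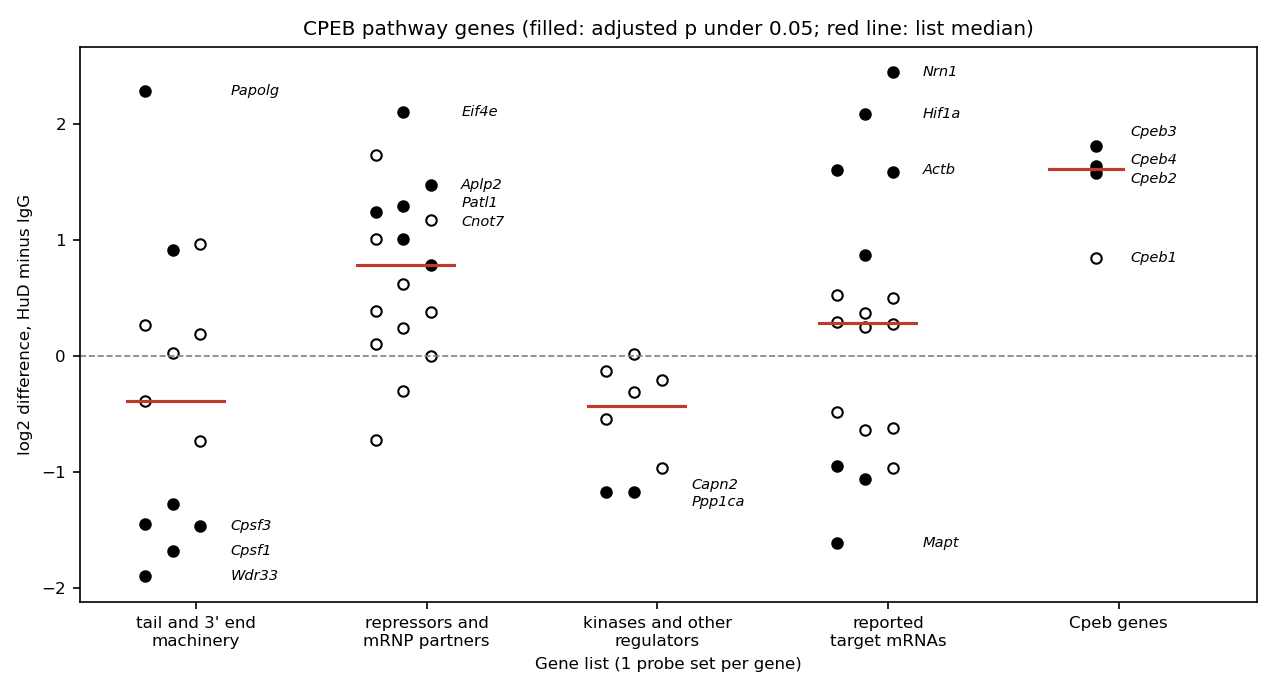
Log2 difference between HuD and IgG pulldowns (vertical axis, log2(signal + 32) scale) for the genes of 4 CPEB pathway lists and for the 4 Cpeb genes, each read by its probe set with the highest mean; filled points passed an adjusted p of 0.05 and the red line is the median of the list. The medians of the 4 lists are −0.39, 0.78, −0.43 and 0.28, and 3 of the 4 Cpeb genes are filled points.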

How the data were processed

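The deposited table held intensity values on a linear scale, 1 per probe set and array; the deposited intensities were already scaled by the authors, with a mean of 150 on each array once the lowest and highest 2% were left out. The software behind them was not given in the sources used here. Depth has no counterpart on arrays, and precision is limited by their number.

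After 64 control probe sets were left out, log2(signal + 32) of 45037 probe sets was fitted with limma 3.58.1 in R 4.3.3, with 1 mean per group, all 6 arrays and a mean-variance trend (3 residual and 5.2 prior degrees of freedom), and tested on simulated data. There was no filter on low values, so all 11 Cpeb probe sets were tested. Symbols came from the platform annotation, and all 11 matched a RefSeq gene table (GRCm38.p6) by identifier. Members and gene lists were chosen with earlier results of these data known. Named pathway genes are the up to 4 called members of each of 4 lists with the largest difference between HuD and IgG, and similar genes are the 3 nearest to each Cpeb gene without clone-type symbols; others are named as list members with their values. Array numbers follow the order of deposit and pair nothing.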

Additional observations from a re-analysis of the deposited data

How the results depend on the processing

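The design leaves 3 residual degrees of freedom, dim probe sets are read close to background, and IgG against input could only have shown large differences. The direction of HuD minus IgG was the same for all 11 Cpeb probe sets in the 9 settings that kept all arrays, as far as a setting tested them. Filtering on mean log2 or dropping the mean-variance trend leaves the difference itself unchanged, so these settings could not alter its direction. With probe sets above the median of mean log2, 9 of 9 Cpeb probe sets were higher than IgG and 8 of 9 higher than the input. Of all 22518 tested, 3309 and 2196 were higher. This filter uses the HuD signal too. It also left out Cpeb3 1445868_at and Cpeb4 1449931_at, whose differences from IgG were 0.06 and 0.04. The count of 9 of 9 therefore follows in part from the filter. With 1 probe set per gene and genes above the median, the counts were 4 of 4 and 3 of 4, beside 1958 and 1428 of 9097 genes. Median centring left 3 probe sets higher than the input. Pathway genes lower than IgG numbered 4 with 75th percentile centring and 4 with median centring, which moved the median log2 difference of all probe sets from −0.08 to 0.03 and 0.01.

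With the title suffix as replicate block, 6 Cpeb probe sets were higher than IgG (Cpeb3 1437765_at was at 1.06 with an adjusted p of 0.0523), and 0 higher than the input, where 0 of all 45037 passed in place of 2669. The arrays share only a suffix or number: deviations of HuD array 1 and IgG array 1 correlated at −0.03 and those of HuD arrays 2 and 3 with IgG array 2 at −0.23 and 0.22 over probe sets, with only 2 IgG arrays. With probe sets above the median, 5711 passed against the input, and 54 passed for IgG against input in place of 0.

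Over the fits without 1 array, the Cpeb probe sets called ranged from 0 to 4 for HuD against IgG and from 0 to 6 for HuD against input. Pathway genes ranged from 4 to 11 higher and from 0 to 10 lower. Uncalled values crossed 0 in these fits: Cpeb3 1445868_at ranged from −0.24 to 0.37 against IgG and from −0.0080 to 0.37 against input, and Cpeb4 1449931_at from −0.21 to 0.29. For IgG against input, Cpeb2 1443017_at ranged from −0.10 to 2.23, Cpeb3 1445868_at from −0.22 to 0.39, Cpeb3 1455372_at from −0.76 to 0.11, Cpeb3 1456048_at from −0.70 to 0.64 and Cpeb4 1449931_at from −0.16 to 0.34.

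Other uncalled values of IgG minus input changed sign. With median centring they were −0.16 for Cpeb1, −0.034 for Cpeb2 1434272_at, −0.066 for Cpeb3 1445868_at, −0.19 for Cpeb4 1420617_at, −0.066 for Cpeb4 1420618_at and −0.0035 for Cpeb4 1449931_at. With quantile normalization they were −0.11 for Cpeb3 1445868_at, 0.076 for Cpeb3 1456048_at and −0.038 for Cpeb4 1449931_at. With 75th percentile centring Cpeb3 1456048_at was at 0.0091, and with the suffix block it was at 0.37 and Cpeb1 at −0.0074. The cause of these changes was not tested.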
